A study of Homo sapiens with 4 samples.

Results

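The genes ETV1, ETV4 and ETV5 encode the PEA3 group of ETS transcription factors, and their surroundings were examined in a map of chromatin contacts held by cohesin. In hg19, every anchor pair with an anchor midpoint in chr7:13500000-14400000 around ETV1, chr17:41450000-41800000 around ETV4 or chr3:185500000-186100000 around ETV5 was taken. This gave 2474 of the 720049 anchor pairs listed in either table, with 609 pairs at ETV1, 1262 at ETV4 and 603 at ETV5, and 47 of 39507 anchors. The genes were chosen on earlier results of these same tables, in which an anchor inside ETV1 had fewer contacts in shBORIS than in shLUC. Values that compare the groups at the 3 loci are therefore given as a description. Tests run across all anchors and pairs are given for the background only, with their dependence on settings, and support nothing here.

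The cells were of the neuroblastoma line Kelly, made resistant to TAE684, which inhibits the receptor kinase ALK, and both groups were grown in 1 µM of the drug. They were infected for 24 h with virus carrying a hairpin against BORIS (shBORIS) or the control hairpin shLUC, in both cases with polybrene at 8 µg/ml, which aids infection, and selected with puromycin for 48 h. Each group has 2 libraries, whose titles end in numbers that may mark hairpins or repeats, and 1 deposited table that pools them. ChIA-PET ligates DNA ends that are close together in immunoprecipitated chromatin, here with an antibody to the cohesin subunit SMC1, and each joined pair of ends read is a paired-end tag (PET). With 1 pooled table a group, no value below carries a spread between replicates, and the intervals given cover counting error only. The tables hold 146140 intrachromosomal PETs in shLUC and 163041 in shBORIS, and 288835 and 286938 between chromosomes. Expression was not analysed here, so neither the level of BORIS nor the identity of the line was checked from markers.

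PEA3 factors bind DNA through a shared ETS domain and act at the end of receptor tyrosine kinase and ERK signalling, which raises both their activity and their transcription, while the repressor CIC holds the same genes down when ERK is quiet. In neuroblastoma, ALK signalling acts on this branch, with ETV5 as one of its targets. BORIS is the product of CTCFL, a gene related to CTCF whose protein binds DNA through closely similar zinc fingers, and cohesin often halts at CTCF sites, which is where its loops are commonly anchored.

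All 3 genes lie on the minus strand, so that transcription starts at the end with the higher coordinate. In the order of protein-coding genes in RefSeq (GRCh38.p14), ETV1 is followed toward higher coordinates by DGKB, AGMO and MEOX2. ETV4 stands between DHX8 and MEOX1, and ETV5 stands between TRA2B and DGKG. DGKB and DGKG both encode diacylglycerol kinases, and MEOX1 and MEOX2 both encode homeobox factors. An anchor covered or adjoined the start of each gene. At ETV1 the anchor chr7:14028017-14031621 reached from 571 bp beyond the start to 3034 bp into the gene, and at ETV5 chr3:185825121-185828266 reached from 1365 bp beyond it to 1781 bp inside. The anchor chr17:41622004-41623708 at ETV4 ended 92 bp inside its start. These are called the start anchors below.

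Of the 3 genes, ETV1 has promoter windows in the RefSeq promoter table, 6 of them, each holding 250 bases before a transcript start and 50 after it. In GRCh38.p14 the 6 starts lie from 0 to 5013 bp inside the gene, measured from its higher-coordinate end. They were searched on both strands for 8 motifs, and for each the share among 35116 promoter windows of all genes is given. GGNGGCAG, a core of the motif bound by CTCF and BORIS, occurred in 2 of the 6 windows and in 16.7% of all, and the longer CTCF core, whose letters overlap those of GGNGGCAG in part, in 1 of 6 and 2.24%. The match of the longer core lay in chr7:13991200-13991499, a window without GGNGGCAG that is not printed. CCGGAA, a core bound by ETS factors, occurred in 3 of 6, 2 of which are nearly the same window, and in 17.2% of all. The short CTCF word CCCTC was found in 5 of 6 and 71.2%, the GC box GGGCGG in 4 of 6 and 45%, and the CCAAT box CCAAT in 4 of 6 and 34.6%. The E-box CACGTG was found in 1 of 6 and 7.26%, and TGACGT, part of the cAMP response element, in 0 of 6 and 7.98%. Some of the 6 windows overlap, so that 1 match can be counted in more than 1 of them. This holds for GGGCGG and CCAAT too, and the 6 are not separate promoters. The windows that hold GGNGGCAG are printed below from 5′ to 3′ on the minus strand of GRCh38.p14, from RefSeq, because contacts of cohesin were compared at this gene's start. Capitals mark GGNGGCAG and CCGGAA, which were picked from the 8 after the matches had been seen. A match describes letters and is no evidence of binding. The first is chr7:13991376-13991675, with GGNGGCAG from base 12 and CCGGAA from base 115, and the second is chr7:13989617-13989916, with GGNGGCAG from base 173.
ETV1 outermost start: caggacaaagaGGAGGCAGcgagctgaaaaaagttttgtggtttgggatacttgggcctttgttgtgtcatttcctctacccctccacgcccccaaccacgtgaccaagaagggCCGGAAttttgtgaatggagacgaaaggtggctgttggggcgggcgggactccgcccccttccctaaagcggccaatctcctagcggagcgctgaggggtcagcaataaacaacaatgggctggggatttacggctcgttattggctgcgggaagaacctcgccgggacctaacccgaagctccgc
ETV1 start 1759 bp inside: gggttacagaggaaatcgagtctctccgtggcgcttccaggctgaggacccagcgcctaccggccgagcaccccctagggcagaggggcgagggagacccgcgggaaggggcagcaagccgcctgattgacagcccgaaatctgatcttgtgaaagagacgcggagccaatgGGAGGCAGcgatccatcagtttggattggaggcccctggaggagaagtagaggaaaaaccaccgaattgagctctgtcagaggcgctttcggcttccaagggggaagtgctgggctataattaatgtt

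ETV1 was the locus with the most contacts within the gene itself. It spans 13930856-14031050 on chromosome 7, and 6 of the 14 anchors of the window overlap it. One of them, chr7:13958996-13961431, 70.8 kb inside the gene, had 72 intrachromosomal PETs in shLUC and 30 in shBORIS. This is the anchor that led to the choice of the gene. It was above 99.7% of all anchors in shLUC and above 95.8% in shBORIS, and it took part in 51.8% of the intrachromosomal PETs of the window in shLUC and in 39% in shBORIS. It is called the hub anchor below. The ratio of shBORIS to shLUC, after each was divided by its table's intrachromosomal total, was 0.373 for it (95% counting interval 0.235 to 0.579).

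Counts at the other anchors inside ETV1 were lower in shBORIS as well, with the start anchor apart. The anchor at 13951471-13953323 had 27 PETs in shLUC and 11 in shBORIS, and 13948419-13949774 had 10 and 5. Closer to the start, 13984763-13986290 had 18 and 12, and 13988715-13989806 had 17 and 4. The start anchor had 15 in each table, a scaled ratio of 0.896 (0.408 to 1.97). The pairs of the inner anchors, without those that end at the start anchor, held 95 PETs in shLUC and 37 in shBORIS, a scaled ratio of 0.349 (0.232 to 0.515). Whether the ratio of the start anchor differs from that of the inner anchors was not tested. Its wide interval holds the upper part of theirs.

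Over the whole ETV1 window, 139 intrachromosomal PETs were listed in shLUC and 77 in shBORIS, a scaled ratio of 0.497 (0.371 to 0.661). Chromosome 7 as a whole had a ratio of 0.944 (0.919 to 0.971). Pairs of the window without an anchor in the gene held 29 and 25 PETs, a ratio of 0.773 (0.434 to 1.37), so that 110 and 52 of the window's PETs had an end in the gene. Without the hub anchor the window's ratio was 0.629 (0.424 to 0.927). All 9 anchors of the window whose PETs in both tables came to 10 or more had a scaled ratio below 1, and their median was 0.373, against 1.01 over the 19623 such anchors genome-wide. The hub anchor, which led to the choice of the gene, is among the 9, and the median is its own ratio. The median is thus no support apart from that choice. Many of these PETs join 1 of the 9 to another, so that the 9 values are not independent.

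Most contacts between chromosomes join an anchor with a partner seen once. Contacts of this kind were taken to stand for how often an anchor was captured at all, an assumption that was not checked. They were also fewer in shBORIS at ETV1. The window had 295 in shLUC and 220 in shBORIS, a ratio of 0.751 (0.628 to 0.897) after scaling to the interchromosomal totals. The ratio was similar in and outside the gene. It was 0.762 (0.609 to 0.951) for the gene's anchors and 0.731 (0.538 to 0.99) for pairs without an anchor in the gene. For the inner anchors, without pairs of the start anchor, it was 0.69 (0.536 to 0.886). The hub anchor had 83 and 56, a ratio of 0.679 (0.475 to 0.965). At 13984763-13986290 there were 18 and 6, and at 13988715-13989806 18 and 5, whereas 13951471-13953323 had 23 and 30 and the start anchor 30 and 34. Divided by the interchromosomal ratio, the intrachromosomal ratio of the gene's anchors was 0.556 (0.375 to 0.826, normal approximation on the log scale). For the hub anchor the quotient was 0.55 (0.319 to 0.948), and for 13951471-13953323 it was 0.278 (0.115 to 0.675). At 13948419-13949774, with 17 and 12 interchromosomal PETs, it was 0.631 (0.171 to 2.32). For 13984763-13986290 and 13988715-13989806 it was 1.78 (0.548 to 5.78) and 0.754 (0.173 to 3.29), and for the start anchor 0.786 (0.33 to 1.87). The intervals of these last 4 anchors include 1. The part that a difference in capture had in the lower contact counts was not tested.

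**Figure D1:**
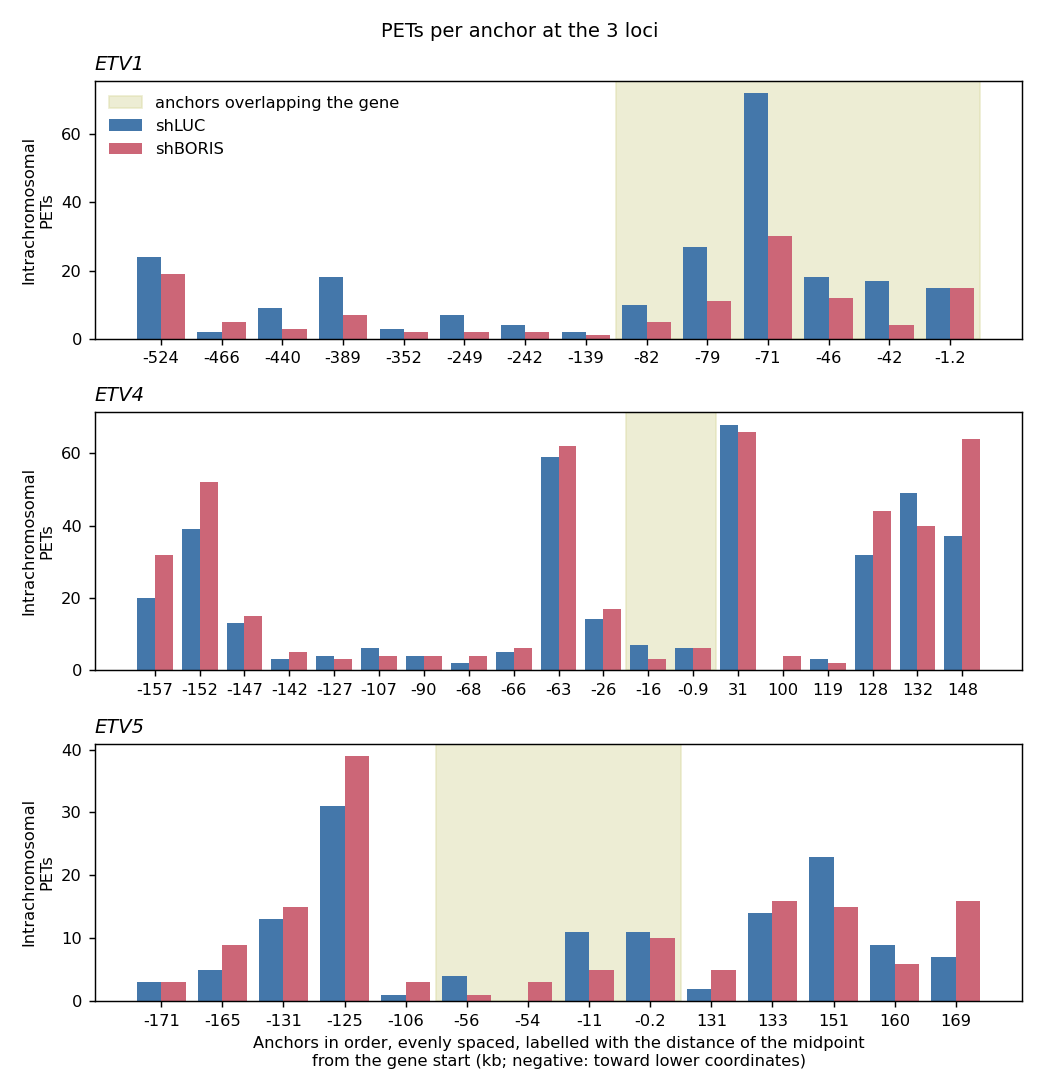
Intrachromosomal PETs (vertical axis, counts) of each anchor in the 3 windows, in order along the chromosome and labelled with the distance of the anchor's midpoint from the gene start in kb, for the pooled shLUC (blue) and shBORIS (red) tables; shading marks anchors that overlap the gene. At ETV1 the highest bars stand inside the gene, 72 and 30 PETs at the hub anchor, while at ETV4 and ETV5 the highest stand outside it.

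Pair by pair, the contacts of ETV1 ran within the gene and toward lower coordinates. Beyond the start anchor the next anchor of the chromosome, chr7:14496811-14498391, was 465 kb away. Within 2 Mb the hub anchor had 41 PETs toward lower coordinates in shLUC and 15 in shBORIS, and 21 and 9 toward higher ones. Its strongest contact was with 13951471-13953323, 7.82 kb away, with 12 PETs in shLUC and 5 in shBORIS. It met 13984763-13986290 with 9 and 5 PETs and 13988715-13989806 with 8 and 2. Outside the gene it met 13506019-13507797, 453 kb away, with 8 and 2 PETs, 13641214-13642582 with 5 and 0, and 13590802-13591735 with 4 and 1. Its contact over 509 kb with 13450561-13452302, an anchor just outside the window, did not share this direction, with 4 PETs in shLUC and 5 in shBORIS. The hub anchor and the start anchor, 69.6 kb apart, were joined by 3 and 2 PETs.

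The lower-coordinate anchors also met each other, in pairs that did not share 1 direction. The pair of 13450561-13452302 and 13506019-13507797 had 4 PETs in shLUC and 5 in shBORIS, and that of 13506019-13507797 and 13641214-13642582 also had 4 and 5. The first of these anchors met 13590802-13591735 with 3 and 1 PETs and 13641214-13642582 with 3 and 0. Inside the gene, 13948419-13949774 and 13951471-13953323 were joined by 4 PETs in each. No pair at ETV1 differed by 8 PETs or more between the tables.

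Called interactions are pairs on 1 chromosome that reached 3 PETs and a deposited Bayes probability of 0.9. At ETV1, 18 of 98 listed intrachromosomal pairs were called in shLUC and 7 in shBORIS, where 7.62% and 8.89% of all 147452 listed pairs were called. With a minimum of 5 PETs the counts were 5 and 5, which does not mean equal PETs. The 5 pairs of shLUC held 12, 9, 8, 8 and 5 PETs there and 5, 5, 2, 2 and 0 in shBORIS. Those of shBORIS held exactly 5 PETs each there, and 12, 9, 4, 4 and 4 in shLUC. The difference in called pairs thus depends on where the minimum falls. Called in both tables were 6, against 4.27% of all pairs, 12 were called in shLUC alone, against 3.35%, and 1 in shBORIS alone, against 4.63%. Of the calls, 14 in shLUC and 5 in shBORIS touched the gene, and the hub anchor had 9 and 3 of them. The call of shBORIS alone joined the start anchor to 13984763-13986290, with 0 and 3 PETs. In the anchor test across the whole table (Fisher's exact test on PETs, Benjamini-Hochberg adjustment), 4 of 19623 anchors passed in either direction, or 0.0204%. Only 1 of them, or 0.0051%, was lower in shBORIS, and it was 1 of the 9 tested anchors of the ETV1 window. It is the anchor that chose the gene, so the count adds nothing. In the pair test, which 0.0506% of 3951 pairs passed, 0 of the 15 tested pairs of the 3 windows did.

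**Figure D2:**
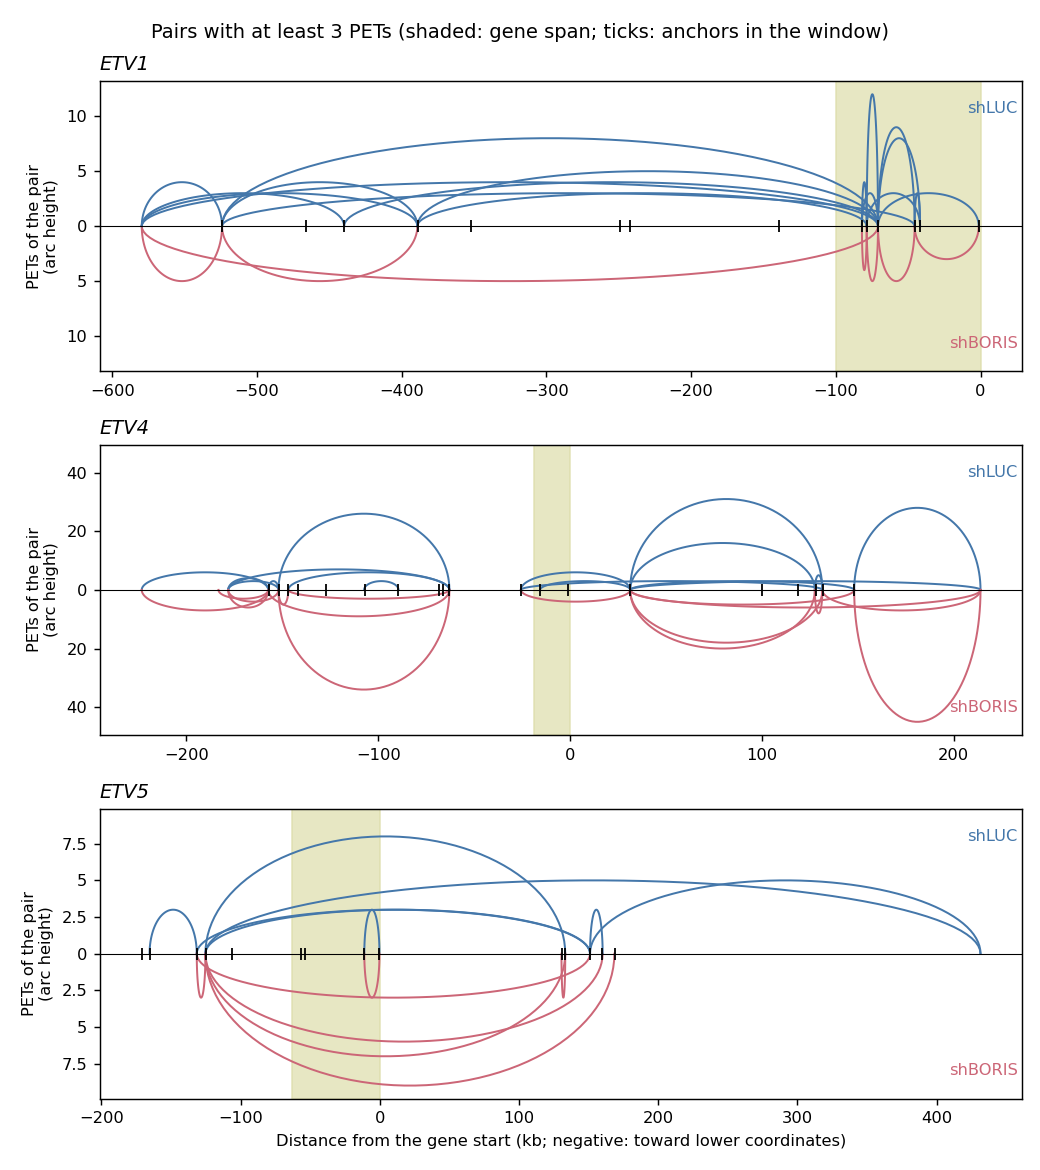
Pairs within 2 Mb with at least 3 PETs, drawn as arcs whose height is the PET count, shLUC upward in blue and shBORIS downward in red, against distance from the gene start in kb; shading is the gene span and ticks are anchors in the window. At ETV1 14 of 18 such pairs in shLUC and 5 of 7 in shBORIS end in the gene, at ETV4 the tallest stand to both sides of the gene, with a few low arcs that cross it or end in it, and at ETV5 the tallest pass over it.

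ETV4 lay in a stretch with more anchors but had few contacts of its own. The gene spans 41605211-41623800 on chromosome 17, and 2 of the 19 anchors of the window overlap it. The inner one, 41607455-41608882, had 7 intrachromosomal PETs in shLUC and 3 in shBORIS, and the start anchor had 6 in each. Both were below the levels of the anchors that flank the gene, such as chr17:41559778-41561972 with 59 and 62 PETs and chr17:41652847-41657424 with 68 and 66. The 2 gene anchors together held 11 and 8 PETs, a scaled ratio of 0.652 (0.228 to 1.78), an interval too wide to show a difference at this depth. Their interchromosomal PETs numbered 15 and 19.

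The strongest contacts of the ETV4 window stood on the 2 sides of the gene without crossing it. Weaker ones did cross it, with 6 and 4 PETs between 41597583-41598726 and 41652847-41657424 and 3 and 2 between the first of these and 41754381-41756265. On the side toward DHX8, chr17:41470698-41472824 met 41559778-41561972, 89.1 kb apart, with 26 PETs in shLUC and 34 in shBORIS. On the other side, toward MEOX1, 41652847-41657424 met 41754381-41756265 with 31 and 18 PETs and 41750551-41752269 with 16 and 20. Farther out, 41771098-41772736 met 41836854-41838712, an anchor outside the window, with 28 and 45 PETs, a scaled ratio of 1.44 (0.879 to 2.4). These contacts ran in both directions between the tables, and the pairs with 28 and 45, 26 and 34, and 31 and 18 PETs were the ones with a difference of at least 8 in the 3 windows. Among the next pairs, 41465303-41467529 met 41399353-41401605 with 6 and 7 PETs, 41443955-41447148 with 4 and 6, and 41559778-41561972 with 2 and 9. The neighbours 41750551-41752269 and 41754381-41756265 met with 5 and 8. Summed over pairs, 41470698-41472824 had 39 and 52 PETs and 41754381-41756265 had 49 and 40. The start anchor's pairs were thin, with 1 and 2 PETs to 41597583-41598726 and 1 and 1 to 41754381-41756265. The inner anchor met 41652847-41657424 with 3 and 1 PETs, the one pair of the gene that was called, in shLUC.

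At ETV4, 17 of 179 intrachromosomal pairs were called in shLUC and 16 in shBORIS, 12 of them in both. These are 9.5%, 8.94% and 6.7% of the pairs, beside 7.62%, 8.89% and 4.27% of all pairs, so that the shares in the single tables were near the background. Another 5 were called in shLUC alone and 4 in shBORIS alone, or 2.79% and 2.23%, beside 3.35% and 4.63%. The window as a whole had 239 intrachromosomal PETs in shLUC and 295 in shBORIS, a scaled ratio of 1.11 (0.93 to 1.32), beside 1.06 for chromosome 17. Between chromosomes it had 547 and 546. Of the 13 anchors with at least 10 PETs summed, 6 had a scaled ratio below 1 and 7 above it, and the median was 1.03. The widest departure among the most contacted anchors was at 41771098-41772736, with 37 and 64 PETs and a ratio of 1.55 (1.02 to 2.39), where the interchromosomal PETs were 56 and 77.

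ETV5 sat under longer contacts that passed over it. The gene spans 185764108-185826901 on chromosome 3, and 4 of the 14 anchors of the window overlap it. The start anchor had 11 intrachromosomal PETs in shLUC and 10 in shBORIS, and chr3:185814778-185816812, 11.1 kb inside the gene, had 11 and 5. The remaining gene anchors had 4 and 1 and 0 and 3. Pairs with an end in the gene summed to 20 and 14 PETs, a scaled ratio of 0.627 (0.293 to 1.31), with 54 and 58 interchromosomal PETs. The start anchor and 185814778-185816812 were joined by 3 PETs in each table, the one pair of the gene called in either group, and it was called in both.

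The anchor with the most contacts at ETV5 was chr3:185700773-185702523, 125 kb from the gene start and beyond the gene's other end, with 31 PETs in shLUC and 39 in shBORIS. It met a group of anchors on the DGKG side of the gene, from 185957003 to 185996085. With 185959213-185961084 it had 8 and 7 PETs over 259 kb, and with 185994836-185996085 it had 2 and 9. With 185986398-185987642 it had 0 and 6, and with 185976792-185979110 3 and 2. A contact that reached farther, to 186257806-186259187 outside the window, had 5 and 2 PETs. The anchor 185976792-185979110, with 23 and 15 PETs in all, met the same distant anchor with 5 and 2, and it met 185694770-185696054, which had 13 and 15 in all, with 3 in each table. The anchor 185700773-185702523 met the ETV5 start anchor with 2 PETs in each table. The partners on the DGKG side thus differed in which table had more PETs, on counts of 9 or fewer.

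For ETV5, 8 of 95 intrachromosomal pairs were called in shLUC and 7 in shBORIS, with 3 called in both, 5 in shLUC alone and 4 in shBORIS alone. The shares of 8.42% and 7.37% in the single tables were near the 7.62% and 8.89% of all pairs. Those called in both, in shLUC alone and in shBORIS alone made up 3.16%, 5.26% and 4.21%, beside 4.27%, 3.35% and 4.63%. The window held 90 and 89 intrachromosomal PETs, a scaled ratio of 0.886 (0.654 to 1.2), beside 0.956 for chromosome 3, and 238 and 271 between chromosomes. Of 9 anchors with at least 10 PETs summed, 4 had a ratio below 1 and 5 above it, with a median of 1.02.

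**Figure D3:**
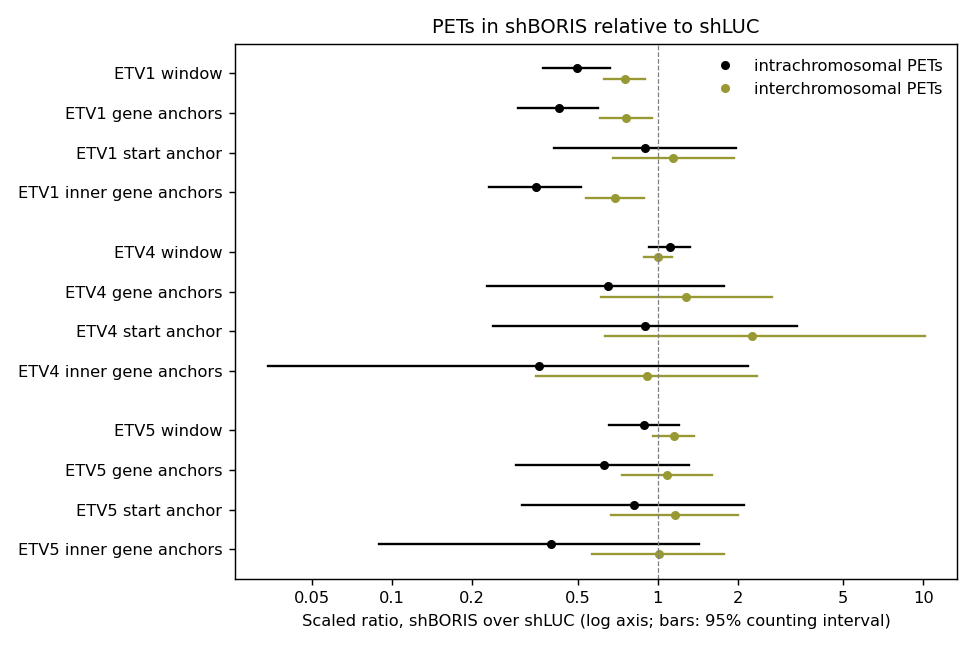
Scaled ratio of shBORIS to shLUC PETs (horizontal log axis) for each window, its gene anchors, start anchor and inner gene anchors (pairs without the start anchor), for intrachromosomal (black) and interchromosomal (olive) PETs; bars are 95% counting intervals and the dashed line is 1. The intrachromosomal intervals of the ETV1 window, gene anchors and inner anchors lie below 1, while those of its start anchor and of every ETV4 and ETV5 set include 1.

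In each gene the pairs of the inner anchors, summed, had a lower scaled ratio than the start anchor. The intervals of the 2 overlapped in each gene, and for ETV4 and ETV5 the ratios rest on few PETs. ETV4 has a single inner anchor, with 5 and 2 PETs outside pairs with the start anchor, a ratio of 0.359 (0.0341 to 2.19). The inner anchors of ETV5 had 9 and 4, a ratio of 0.398 (0.0896 to 1.43). Among them, 185772360-185773355 went the other way, with 0 PETs in shLUC and 3 in shBORIS. The start anchors of the 3 genes had ratios of 0.896, 0.896 and 0.815, and each interval included 1. No pair listed in either table joined any of the 3 windows to another.

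The loci also stood at different levels of contact for the spacing of their anchors. The high shLUC count of the hub anchor entered the choice of ETV1, so these values too are a description. The PETs of a window within 2 Mb were divided by the number expected if each pair of anchors, unlisted pairs included, had the mean PETs of all anchor pairs of its span class (under 20 kb, 20 to 100 kb, 100 to 500 kb and 500 kb to 2 Mb). At ETV1 the observed count in shLUC was 114 for 33.2 expected, or 3.44 times (2.83 to 4.13, counting interval), and in shBORIS it was 61 for 37.4, or 1.63 times (1.25 to 2.09). ETV4 stood at 1.01 times in shLUC (0.874 to 1.16) and 1.11 in shBORIS (0.975 to 1.25). ETV5 stood at 1.42 times (1.11 to 1.79) and 1.25 (0.976 to 1.57). With the expectation taken from the gene's own chromosome, ETV1 stood at 3.03 and 1.52 times, ETV4 at 1.23 and 1.28, and ETV5 at 1.12 and 1.03. The order of ETV4 and ETV5 thus depends on the expectation used. For the anchors of the genes alone, expected from all chromosomes, the values in shLUC and shBORIS were 4.82 and 1.95 at ETV1, 0.437 and 0.275 at ETV4, and 0.873 and 0.489 at ETV5. The ETV1 start anchor had 2.76 and 2.94 times its expected PETs. That expectation takes no account of how strongly each anchor was captured.

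**Figure D4:**
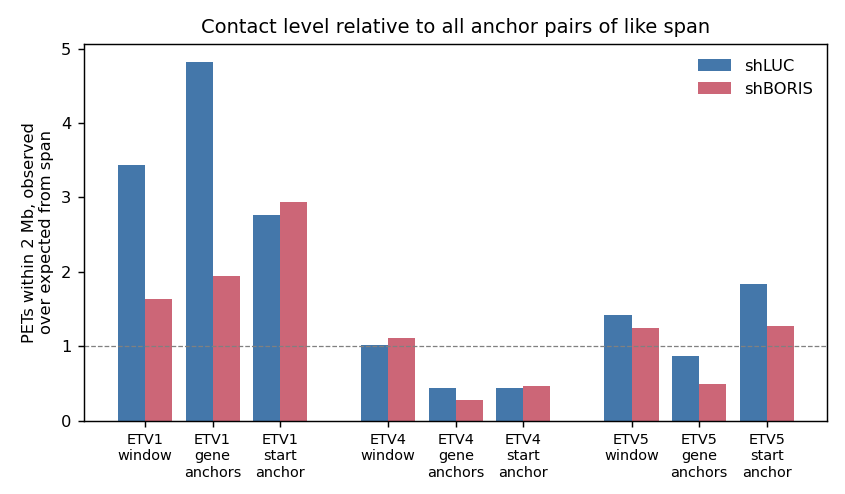
PETs within 2 Mb divided by those expected from the span of each anchor pair (vertical axis, starting at 0), for the window, gene anchors and start anchor of each gene in shLUC (blue) and shBORIS (red); the dashed line is the mean of all anchor pairs. The ETV1 gene anchors stand at 4.82 in shLUC and 1.95 in shBORIS, and those of ETV4 stay below 1 in both.

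The 3 genes also differed in whether contacts ended in them or passed over them. At ETV1, 91 PETs within 2 Mb in shLUC and 42 in shBORIS had an end in the gene, and 1 and 2 passed over it. Beyond its start the next anchor was 465 kb away, and the pairs that could pass over each gene were not counted. At ETV4, 10 and 7 ended in the gene and 17 and 20 passed over it. At ETV5, 16 and 10 ended in it and 32 and 40 passed over it. The median span of PETs within 2 Mb at ETV1 was 135 kb for the shLUC table and 69.6 kb for the shBORIS table, 89.1 kb in both at ETV4, and 269 and 271 kb at ETV5. At ETV1 the class of 100 to 500 kb held 48 PETs in shLUC and 19 in shBORIS, and that of 20 to 100 kb 33 and 22. Under 20 kb there were 22 and 11, and from 500 kb to 2 Mb 11 and 9, so that the counts show no steady order with span.

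At the window edges, the anchors just inside and outside had similar counts at ETV1's low edge, with 24 and 19 PETs at 13506019-13507797 and 19 and 19 at 13450561-13452302. At its high edge the start anchor, the nearest inside, had 15 and 15, and 14496811-14498391 outside had 3 and 12. At ETV4's low edge they were 20 and 32 inside at 41465303-41467529 and 21 and 24 outside at 41443955-41447148. On ETV4's high edge they were 37 and 64 inside at 41771098-41772736 and 38 and 76 outside at 41836854-41838712. Of the ETV5 edges, the lower had 3 and 3 PETs inside and 3 and 4 outside, and the upper 7 and 16 inside and 3 and 2 outside.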

How the data were processed

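SMC1 ChIA-PET libraries of resistant Kelly cells, 2 for each hairpin, were compared through 1 pooled table a group. Reads were handled with cutadapt 1.8 and Bowtie on hg19, per the submitters' processing notes; for anchors and pair scores, the method is not given in the sources used here. A PET count is an unnormalized count per anchor pair, per the file headers, and the deposited tables list pairs from 1 PET. The deposited Bayes probability is a fraction from 0 to 1, and the authors' hypergeometric p-value was not used. The shBORIS table lacks a header, and its columns were taken to follow those of shLUC. Coordinates count from 1.

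Members, gene lists and measures were chosen with earlier results of these data known. Gene spans and windows are those of the selection rule. For a scaled ratio, PETs were first expressed per intrachromosomal (or interchromosomal) PET of their table, and shBORIS was divided by shLUC. The exact 95% conditional intervals cover counting error only, since each group has 1 pooled table. They treat PETs as independent counts, which was not checked, and PETs carry no molecular identifiers. Across all pairs and anchors with at least 10 summed PETs, two-sided Fisher's exact tests with Benjamini-Hochberg adjustment (threshold 0.05) gave the background, on scripts tested on simulated data. The split of gene anchors into start and inner ones, the quotient of intrachromosomal and interchromosomal ratios, PETs that end in or pass over a gene, and the motifs were added after member values had been seen. Of 8 motifs searched, 2 were picked for marking after their matches were seen. Named were anchors overlapping a gene, the 8 strongest pairs and 5 strongest anchors of each window, pairs differing by at least 8 PETs, and edge anchors. Python 3.11.15, pandas 2.3.3, numpy 2.4.6 and scipy 1.17.1 were used. Other ERK pathway genes need hg19 positions and were not analysed here. The RefSeq promoter table matched ETV1 but not ETV4 or ETV5.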

Additional observations from a re-analysis of the deposited data

How the results depend on the processing

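Across 20 results, 76 alternatives were run. In 68 a count moved by no more than 1.5 times or a value stayed in its counting interval, 8 moved farther and 0 reversed. Only a scaled ratio whose main interval excluded 1 could be scored as reversed. That held for the ETV1 window and the ETV1 gene anchors alone, so that the 0 says nothing of the other results. The ETV1 window ratio ranged from 0.413 (both ends in the window) to 0.629 (without the hub anchor), and that of the ETV1 gene anchors from 0.407 to 0.519. The ETV4 window ratio was 0.937 and that of ETV5 1.16 with both ends in the window, on the other side of 1 from their main values, with intervals that include 1. With at least 5 PETs, called interactions in shLUC numbered 5 at ETV1, 9 at ETV4 and 3 at ETV5, and in shBORIS 3 at ETV5. In shBORIS the ETV1 window then had 5, each with exactly 5 PETs, while those of shLUC held 5 to 12. Its counts in the 2 tables were thus equal, where they were 18 and 7 at the lower minimum. Fewer pairs reach the higher minimum. Expected from chromosome 17 alone, the ETV4 window stood at 1.23 times in shLUC and 1.28 in shBORIS. Expected from chromosome 3 alone, the ETV5 window stood at 1.12 and 1.03, inside its main intervals but below ETV4. Across the whole table, 0 pairs passed without those under 20 kb, and 2 anchors passed within 2 Mb, the hub anchor of ETV1 among them. It is the anchor that chose the gene, so that its passing again adds nothing. The cause of these shifts was not tested. No paired analysis was possible because the 2 libraries of a group come pooled in 1 table, and for the same reason none could be left out. The gene anchors of ETV4 and ETV5 held 8 to 20 PETs a table, so that differences inside the printed intervals were not detectable.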

Other observations

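Contacts of the 3 loci with other chromosomes were scattered. Of 511 such pairs at ETV1, 507 were seen once, as were 1073 of 1083 at ETV4 and 507 of 508 at ETV5, and none reached 3 PETs summed over the tables. The number listed in both tables was 0 at ETV1, 2 at ETV4 and 0 at ETV5, beside 373 of 572597 over the genome.

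Contacts above 2 Mb on the same chromosome made up 18% of the intrachromosomal PETs of the ETV1 window in shLUC and 20.8% in shBORIS, beside 12.9% and 11.4% over all pairs. At ETV4 they made up 14.6% and 14.9%, and at ETV5 18.9% and 19.1%. The one such pair of the ETV1 window listed in both tables joined the hub anchor to chr7:44835200-44837948, with 1 PET in each.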
